A study of Homo sapiens with 8 samples.

Results

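The 30 genes described here encode enzymes of cholesterol and fatty acid synthesis and the regulators that control them, and were taken as a named list of targets of the sterol regulatory element-binding proteins (SREBPs) out of 25369 genes in the deposited tables. All 30 were present and all 30 passed the filter on low counts, which left 14570 genes to be tested. RNA-seq was measured in wild type LX-2 cells, an immortalized human hepatic stellate cell line, on fibronectin-coated polyacrylamide hydrogels in medium with fetal bovine serum. Cells were kept on a soft matrix (2 kPa) or a stiff matrix (40 kPa) for 2 or 4 days, with 2 libraries in each of the 4 conditions and 8 in all, and no library of untreated cells on plastic was analysed here. Because all libraries came from 1 cell line, p-values measure the spread between these cultures and not between people.

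SREBPs are made as precursors in the membrane of the endoplasmic reticulum. When sterols are scarce, SCAP escorts them to the Golgi, where they are cut, and the released fragment enters the nucleus and binds sterol regulatory elements beside sites for NF-Y and Sp1. SREBF2 encodes the form known mainly for cholesterol genes and SREBF1 the forms known mainly for fatty acid genes, while INSIG proteins retain SCAP when sterols are plentiful. Quiescent stellate cells of the liver store retinyl esters in lipid droplets, which they lose as they become myofibroblasts. The comparison asks how the level of these genes differed between days and between matrices in this lineage.

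The promoters of members whose day 4 and day 2 values differed with the smallest p in each direction are shown because the genes moved in opposite directions. Each run is the 250 bases before the annotated start, written 5′ to 3′ on the strand of the gene, from RefSeq on GRCh38.p14. For IDI1 the start that lies in annotated transcripts was taken. Capitals mark the NF-Y box CCAAT or its complement ATTGG and the core of the sterol regulatory element TCACNCCAC, each searched on both strands.
MSMO1, chr4:165327419-165327668, plus strand: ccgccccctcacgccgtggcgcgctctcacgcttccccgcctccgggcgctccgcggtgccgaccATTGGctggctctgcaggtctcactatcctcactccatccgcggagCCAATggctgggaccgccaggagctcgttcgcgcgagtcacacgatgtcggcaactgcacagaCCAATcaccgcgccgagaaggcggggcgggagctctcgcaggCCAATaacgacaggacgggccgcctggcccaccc
IDI1, chr10:1049120-1049369, minus strand: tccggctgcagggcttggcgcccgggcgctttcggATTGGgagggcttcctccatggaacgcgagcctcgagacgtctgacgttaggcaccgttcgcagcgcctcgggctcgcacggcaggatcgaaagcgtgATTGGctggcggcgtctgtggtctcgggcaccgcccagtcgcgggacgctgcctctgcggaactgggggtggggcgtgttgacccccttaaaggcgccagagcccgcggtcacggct
EBP, chrX:48521558-48521807, plus strand: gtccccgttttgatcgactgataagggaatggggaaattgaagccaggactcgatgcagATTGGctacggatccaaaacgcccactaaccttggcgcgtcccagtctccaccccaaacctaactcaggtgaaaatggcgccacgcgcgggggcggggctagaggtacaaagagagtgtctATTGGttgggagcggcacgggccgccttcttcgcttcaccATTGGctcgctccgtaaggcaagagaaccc
SREBF1, chr17:17836987-17837236, minus strand: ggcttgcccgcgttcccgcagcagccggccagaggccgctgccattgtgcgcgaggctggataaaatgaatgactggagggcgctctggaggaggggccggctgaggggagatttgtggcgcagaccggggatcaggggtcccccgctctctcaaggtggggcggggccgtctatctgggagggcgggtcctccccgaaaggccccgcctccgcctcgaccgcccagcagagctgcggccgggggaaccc
SREBF2, chr22:41832855-41833104, plus strand: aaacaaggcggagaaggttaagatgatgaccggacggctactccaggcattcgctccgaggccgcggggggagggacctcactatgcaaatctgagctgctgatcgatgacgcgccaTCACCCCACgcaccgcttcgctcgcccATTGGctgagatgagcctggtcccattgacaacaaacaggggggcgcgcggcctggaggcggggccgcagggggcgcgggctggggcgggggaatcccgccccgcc
The MSMO1 promoter held 4 NF-Y boxes, at 180, 134, 71 and 29 bases from the start. The EBP promoter held 3, at 186, 65 and 25 bases, and the IDI1 promoter held 2, at 210 and 112 bases. SREBF2 held the element core at 124 bases and 1 NF-Y box at 101 bases, and the 2 motifs did not overlap. SREBF1 held neither. FASN, which had the smallest p of the members that fell, is named only.

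Of the 30 members, 26 had a promoter in the RefSeq table. An NF-Y box was found in 19 of these 26, against 32.0% of all 35116 promoters and 37% of the 27305 genes they belong to. The Sp1 box GGGCGG was found in 25 of 26, against 42.6% of promoters and 46.2% of genes. The core of the sterol regulatory element, searched by the letters TCACNCCAC, was found in 1 of 26, against 0.883% of promoters and 1.09% of genes. Among members that rose from day 2 to day 4 in the mean of both matrices, 4 of 5 held an NF-Y box, and among those that fell it was 5 of the 7 that had a promoter. Among members not called it was 10 of the 14 that had a promoter. Members of either direction and members not called thus held the box.

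Library depth ran from 19955975 to 27263935 counts. The members took 0.242% to 0.378% of all counts, with the highest shares in the soft day 2 libraries and the lowest in stiff day 4 replicate 2. The stiff day 4 replicates stood apart from each other, with a coefficient of variation between replicates of 31.0% against 4.28% to 12.3% in the other conditions. Principal component 2, which held 17.7% of the variance, placed them at -34.6 and 50.4. Of the stellate cell markers, COL1A1 was between 504 and 1021 CPM (counts scaled to the effective library size) and VIM between 1966 and 6360.4 CPM. PDGFRB was lower, between 10.9 and 24.7 CPM, and COL1A2 was between 2.13 and 4.06 CPM, while DES and LRAT had at most 2 and 1 counts in any library. Of 8 hepatocyte markers, 3 were at 0 in every library, ALB had at most 8 counts, and the list's summed level was 4.45 to 7.23 CPM at day 2 and 5.65 to 10.6 CPM at day 4. The summed macrophage and leukocyte list was 91.6 to 109.9 CPM at day 2 and 106.9 to 127.1 CPM at day 4, most of it CD68, with CD163 and CD3E at 0. Within this list PTPRC rose by 1.81 ± 0.29 (adjusted p = 0.0020 in edgeR) and CSF1R fell by 1.48 ± 0.26 (adjusted p = 0.0027 in edgeR), both at under 3 CPM in every library. The summed endothelial list was 2.43 to 2.97 CPM at day 2 and 3.17 to 5.11 CPM at day 4. Of its 3 genes tested, TEK rose by 1.08 ± 0.28 (adjusted p = 0.015 in edgeR), at 1.40 to 4.27 CPM, while VWF and KDR did not pass. The summed cholangiocyte list was 32.2 to 37 CPM at day 2 and 50.7 to 71.1 CPM at day 4, most of it SOX9 and KRT7. Of its 3 genes tested, SOX9 rose by 1.16 ± 0.09 (adjusted p = 0.00018 in edgeR), while KRT7 (0.08 ± 0.22) and KRT19 (0.55 ± 0.51) did not pass. The summed stellate cell list was 3098 to 3852 CPM at day 2 and 4883 to 7220 CPM at day 4, most of it VIM. Of the 8 stellate cell markers tested, 4 rose in the mean of both matrices and 1 fell (24.3% and 21.9% of all genes). VIM rose by 1.04 ± 0.16 on the log2 scale (adjusted p = 0.0018 in edgeR) and ACTA2 by 0.91 ± 0.13 (adjusted p = 0.0011 in edgeR). RGS5 rose by 0.73 ± 0.15 (adjusted p = 0.0053 in edgeR) and COL3A1 by 0.83 ± 0.27 (adjusted p = 0.035 in edgeR), while COL1A1 fell by 0.52 ± 0.13 (adjusted p = 0.015 in edgeR). The part of these lists in the results below was not tested. In bulk libraries, fewer cells of a type and less RNA per cell cannot be told apart.

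Levels between genes were compared per length, in FPKM as deposited, which divide by gene length and library scale. ACLY, which makes cytosolic acetyl-CoA from citrate, had the highest mean and ranged from 85.5 to 141 FPKM over the 8 libraries. SREBF1 had the lowest mean and ranged from 3.37 to 7.57 FPKM. SREBF2 ranged from 14.6 to 36.7 FPKM, and its lowest library was above the highest of SREBF1. FDPS, ACAT2, NSDHL and FADS2 followed ACLY, and their ranges overlapped one another. The lowest 5 were TM7SF2, LPIN1, ACACA, ELOVL6 and SREBF1, whose ranges also overlapped.

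**Figure D1:**
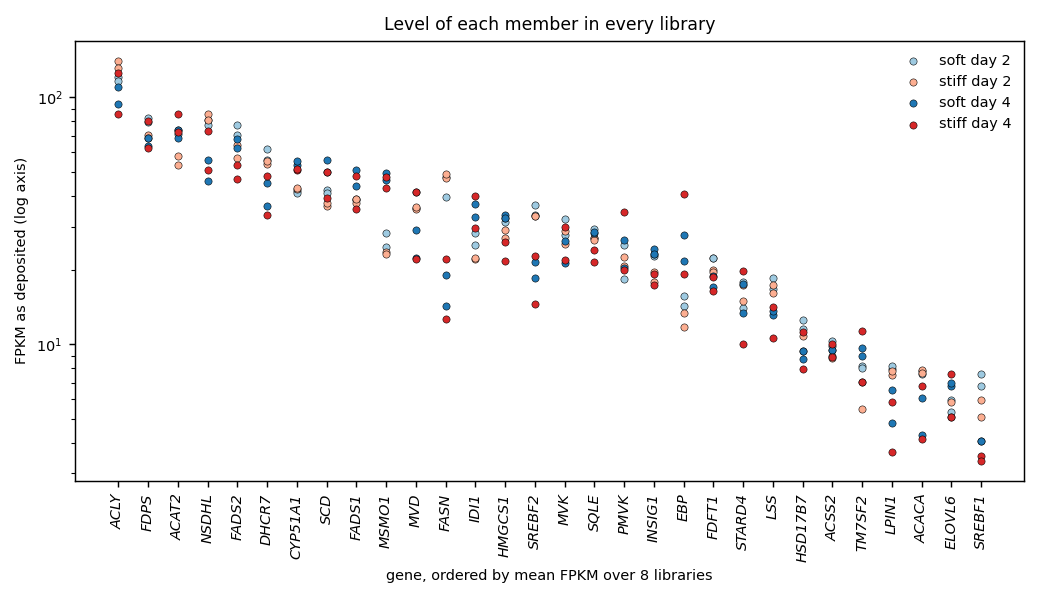
Deposited FPKM (log axis) of each of the 30 members in all 8 libraries, 1 point per library coloured by condition, with genes ordered by their mean. Levels fall from 85.5 to 141 FPKM for ACLY to 3.37 to 7.57 FPKM for SREBF1, and FASN, MSMO1 and EBP show wide gaps between the days.

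From day 2 to day 4 the members did not move as a block. In the mean of both matrices, 5 of 30 rose (MSMO1, EBP, IDI1, CYP51A1 and SCD) and 8 fell (FASN, SREBF2, SREBF1, LPIN1, ACACA, NSDHL, DHCR7 and LSS) at a Benjamini-Hochberg adjusted p under 0.05 in edgeR's quasi-likelihood test over all genes. Of the 5 that rose, 3 belong to the branch from squalene to cholesterol, as do 3 of the 8 that fell. The members that fell included both SREBP genes and the fatty acid synthase gene. Of the 9 fatty acid and glycerolipid genes, 3 fell and 1, SCD, rose. Over all genes tested, 24.3% were called higher and 21.9% lower in this comparison, 46.2% in either direction, so a count of 13 of 30 members was near the background. The median log2 fold change was -0.10 over the members and 0.02 over all genes. All 4 day 4 libraries lay above all 4 day 2 libraries in 4 members (24% of all genes) and below them in 9 members (22.4% of all genes). The number called moved when single libraries were left out. The 5 that rose became 3 without either soft day 2 library, either stiff day 2 library or soft day 4 replicate 2, and 8 without stiff day 4 replicate 1. The 8 that fell became 3 without any 1 of the day 2 libraries, 4 without soft day 4 replicate 1 and 13 without stiff day 4 replicate 2. Calls over all genes moved too, from 28.8% to 35.6% in either direction without 1 of the day 2 or soft day 4 libraries to 61.3% and 62.8% without a stiff day 4 library. MSMO1, IDI1, EBP, FASN, SREBF1 and SREBF2 were called in each of the 19 other settings run, and the other 7 in 9 to 14 of them.

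**Figure D2:**
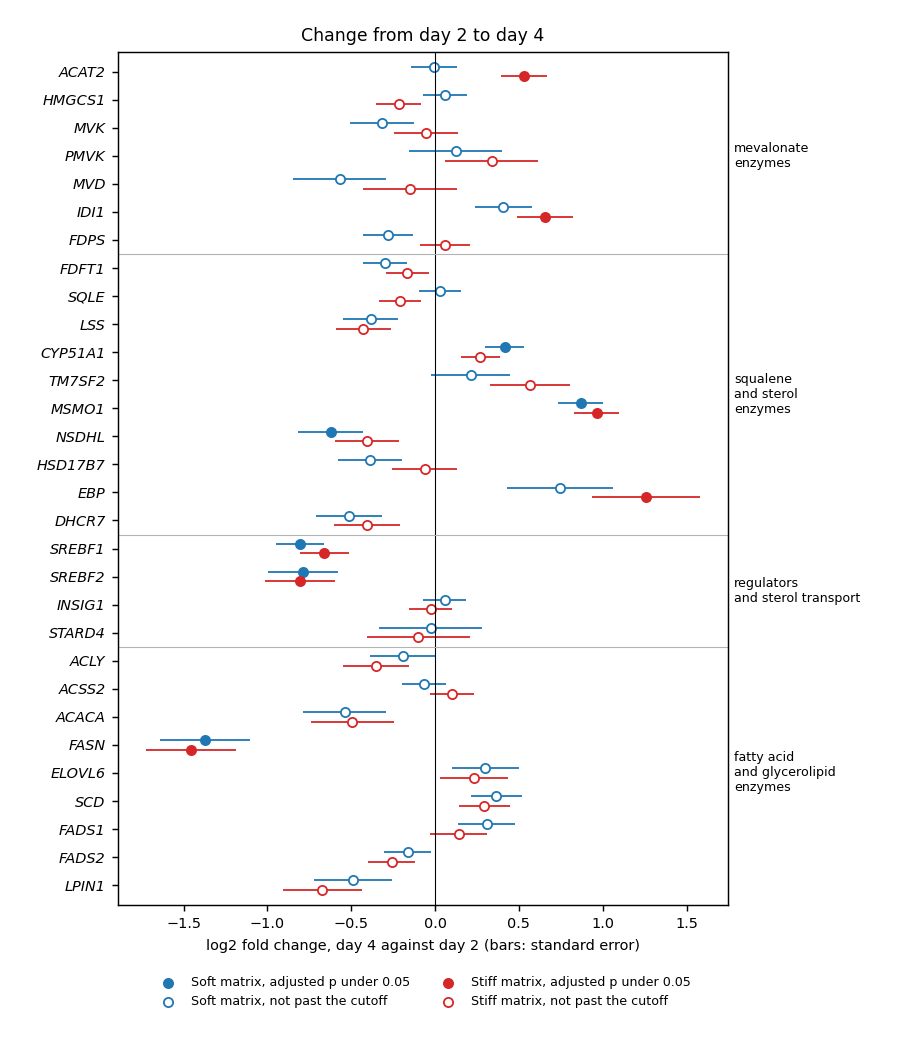
Log2 fold change from day 2 to day 4 of each member on soft (blue) and stiff (red) matrix, with standard errors as bars and filled points past an adjusted p of 0.05. MSMO1 and EBP lie farthest to the right and FASN farthest to the left, and 24 of 30 members have the same sign on both matrices.

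On soft matrix, 2 members rose (CYP51A1 and MSMO1; 14.1% of all genes were called higher) and 4 fell (NSDHL, SREBF1, SREBF2 and FASN; 13.3% of all genes were called lower). On stiff matrix, 4 rose (ACAT2, IDI1, MSMO1 and EBP, background 14%) and 3 fell (SREBF1, SREBF2 and FASN, background 13.7%). Of 20 other settings, CYP51A1 was called on soft in 11, MSMO1 in 19, NSDHL in 10, SREBF1 in 17, SREBF2 in 12 and FASN in 18. On stiff, ACAT2 was called in 11, IDI1 in 13, MSMO1 in 18, EBP in 14, SREBF1 in 17, SREBF2 in 15 and FASN in 17. The median log2 fold change of the members was -0.11 on soft, against 0.02 over all genes, and -0.08 on stiff, against 0.03 over all genes. Without 1 library, the soft counts ran from 0 (without soft day 2 replicate 1) to 6 higher and from 0 (without soft day 2 replicate 1 or soft day 4 replicate 1) to 13 lower, the highest of both being reached without either stiff day 4 library. Without any 1 of the other 5 libraries, 1 member was higher on soft, and 2 were lower without soft day 2 replicate 2 or either stiff day 2 library and 1 without soft day 4 replicate 2. Without 1 library, the share of all genes called on soft ran from 2.32% to 52.9% and on stiff from 3.14% to 52.1%, in either direction. The stiff counts ran from 0 (without stiff day 2 replicate 2) to 7 (without stiff day 4 replicate 2) higher and from 0 (without either stiff day 2 library) to 11 (without stiff day 4 replicate 1) lower. The higher count on stiff was 1 without either soft day 2 library or stiff day 2 replicate 1 and 2 without soft day 4 replicate 1, and the lower count was 5 without stiff day 4 replicate 2. When only the compared libraries were fitted, the soft counts were 5 higher and 12 lower, in a fit that called 24.7% of all genes higher and 25.9% lower, and the stiff counts were 0 and 0, with 0 of 14069 genes called. The changes on soft and on stiff share no library. Over the 30 members they correlated with Pearson's r = 0.91 and Spearman's rho = 0.86, given as a description since members share each library. Over all 14570 genes Pearson's r was 0.835 and 84.9% had the same sign. The 6 members of opposite sign were ACAT2, ACSS2, FDPS, HMGCS1, INSIG1 and SQLE.

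The mevalonate branch turns acetyl-CoA into isoprenoid units. Of its 7 enzymes, 1 rose and none fell in the mean of both matrices, and in edgeR 2 of 7 had an unadjusted p under 0.05, against 54.0% of all genes. IDI1, the isomerase that supplies dimethylallyl diphosphate, was at 54.1 and 60.1 CPM on soft and 47.5 and 47.7 CPM on stiff matrix at day 2, and at 79.8 and 71.7 CPM on soft and 63.9 and 86.0 CPM on stiff at day 4. All 4 day 4 libraries were above all 4 day 2 libraries, and it rose by 0.53 ± 0.12 on the log2 scale (SE, adjusted p = 0.0083 in edgeR). Its change was 0.41 ± 0.17 on soft (adjusted p = 0.11) and 0.66 ± 0.17 on stiff (adjusted p = 0.025 in edgeR). ACAT2, the cytosolic thiolase that joins acetyl-CoA units, was at 115 and 109.7 CPM on soft and 90.1 and 82.3 CPM on stiff matrix at day 2, and at 115 and 109 CPM on soft and 113 and 135 CPM on stiff at day 4. The stiff day 2 pair was the lowest of the 4 pairs, and ACAT2 rose on stiff by 0.53 ± 0.14 (adjusted p = 0.026 in edgeR), while on soft its difference between days was -0.004 ± 0.14 (adjusted p = 0.99). The difference between these changes was 0.53 ± 0.19, with an unadjusted p of 0.026 and an adjusted p of 0.9997 in edgeR, so it did not pass the test.

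None of the other 5 mevalonate enzymes passed the test in any of the 6 contrasts. HMGCS1, which makes HMG-CoA, was at 171 and 178 CPM on soft and 148 and 158 CPM on stiff matrix at day 2, and at 183 and 180.4 CPM on soft and 142 and 120.3 CPM on stiff at day 4. It was lower on stiff than on soft at each day and nearly level over time on soft. MVD, the decarboxylase, had a log2 fold change of -0.57 ± 0.28 on soft and -0.15 ± 0.28 on stiff, where its libraries were at 39.9 and 75.4 CPM at day 4. FDPS, which makes farnesyl diphosphate, had -0.28 ± 0.15 on soft and 0.06 ± 0.15 on stiff. The kinases MVK and PMVK had -0.19 ± 0.14 and 0.23 ± 0.20 in the mean of both matrices. The summed level of the branch was 545 to 651 CPM at day 2 and 535 to 658 CPM at day 4, so the days overlapped.

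The branch from squalene to cholesterol held 3 of the 5 members that rose and 3 of the 8 that fell, out of 10. MSMO1, which acts in the removal of the C-4 methyl groups, was at 55.4 and 62.9 CPM on soft matrix at day 2. On stiff matrix at day 2 it was at 52.8 and 51.5 CPM. At day 4 it was at 110.4 and 105 CPM on soft and 96.1 and 107 CPM on stiff. Every day 4 library was well above every day 2 library, and MSMO1 rose 1.89-fold, by 0.92 ± 0.09 on the log2 scale (SE, adjusted p = 0.00036 in edgeR). It passed the test on soft (0.87 ± 0.13, adjusted p = 0.0046) and on stiff (0.96 ± 0.13, adjusted p = 0.0035 in edgeR). EBP, the sterol isomerase, was at 16.6 and 18.1 CPM on soft and 13.6 and 15.5 CPM on stiff matrix at day 2, and at 32.4 and 25.7 CPM on soft and 22.4 and 47.5 CPM on stiff at day 4. The groups of days did not overlap, but the stiff day 4 pair differed by 1.08 on the log2 scale, the widest gap of any member, and EBP rose 2.00-fold (SE 0.23 on the log2 scale, adjusted p = 0.0086 in edgeR). CYP51A1, the lanosterol demethylase, was at 137 and 135 CPM on soft and 140.3 and 141 CPM on stiff matrix at day 2, and at 176 and 186 CPM on soft and 168 and 171 CPM on stiff at day 4. Its replicates lay close together in every condition, and it rose by 0.34 ± 0.08 (adjusted p = 0.011 in edgeR).

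NSDHL acts in the same C-4 demethylation as MSMO1 but moved the other way. It was at 132 and 127 CPM on soft and 139 and 132 CPM on stiff matrix at day 2, and at 91.7 and 76.2 CPM on soft and 83.2 and 121 CPM on stiff at day 4. Its stiff day 4 replicate 2 came close to the day 2 level, and NSDHL fell by 0.51 ± 0.14 on the log2 scale (adjusted p = 0.016 in edgeR). LSS, the cyclase that forms lanosterol, was at 88.6 and 80.1 CPM on soft and 77.3 and 83.0 CPM on stiff matrix at day 2, and at 62.9 and 66.4 CPM on soft and 68.0 and 51.0 CPM on stiff at day 4. It fell by 0.41 ± 0.12 (adjusted p = 0.022 in edgeR) with no overlap between the days. DHCR7, which catalyses a last step to cholesterol, was at 165 and 148 CPM on soft and 143 and 147 CPM on stiff matrix at day 2, and at 97.4 and 122 CPM on soft and 129 and 90.1 CPM on stiff at day 4. It fell by 0.46 ± 0.14 (adjusted p = 0.027 in edgeR), also with no overlap between the days. The stiff day 4 pair was wider apart than the day 2 pairs in all 3 of these genes.

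FDFT1, SQLE, TM7SF2 and HSD17B7 did not pass the test for the mean of both matrices. FDFT1, the squalene synthase, stood at -0.23 ± 0.09 on the log2 scale with an adjusted p of 0.069 in edgeR, and all its day 4 libraries were below all its day 2 libraries. TM7SF2, a sterol reductase, had 0.39 ± 0.17 and HSD17B7, which acts on C-3 ketones, had -0.22 ± 0.14. SQLE, the epoxidase, had -0.09 ± 0.09. The summed level of the branch was 760 to 805 CPM at day 2 and 735 to 773 CPM at day 4.

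**Figure D3:**
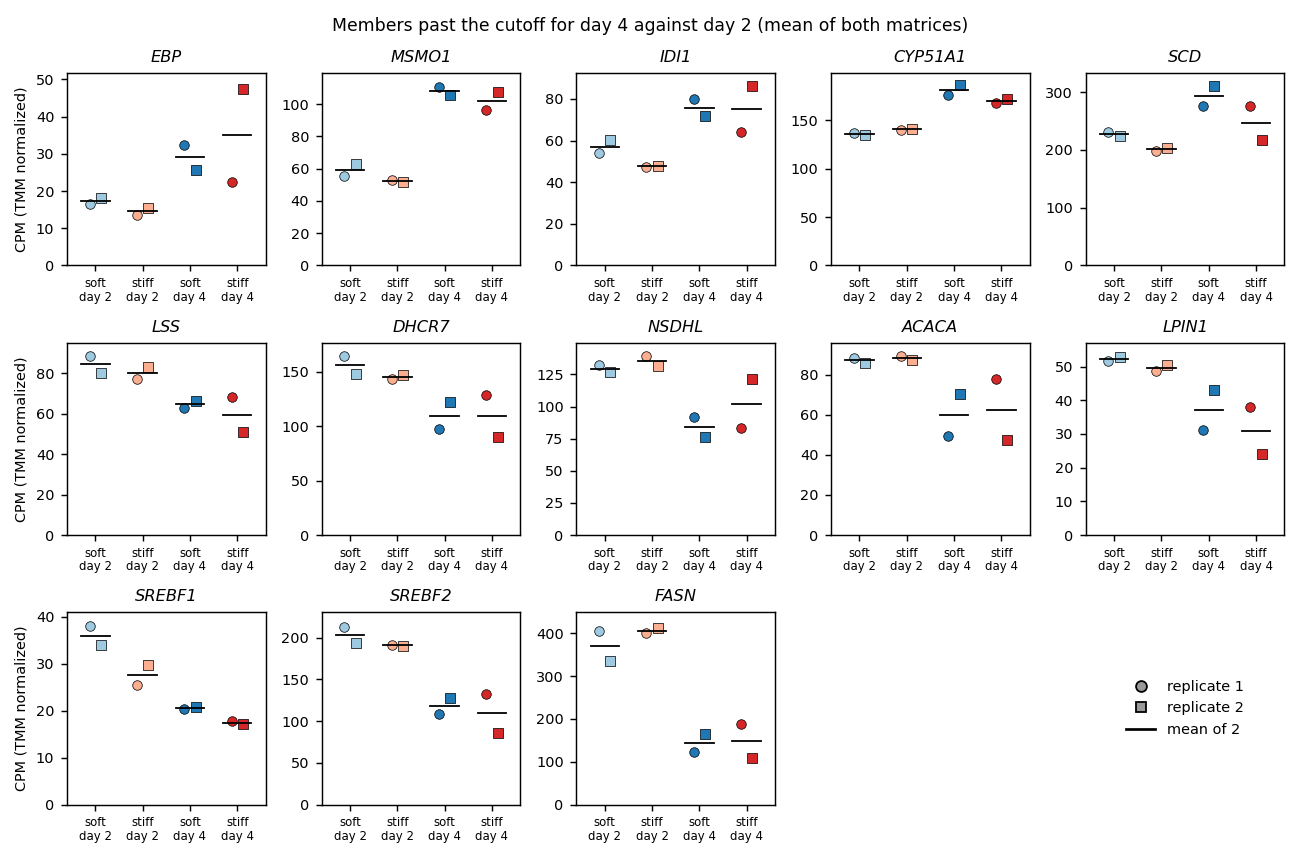
TMM-normalized CPM of the 13 members called for the mean day change, by condition, with replicate 1 as a circle, replicate 2 as a square and the mean of 2 as a line (each axis starts at 0). Day 4 lies above day 2 in the first row, apart from the stiff day 4 replicate 2 of SCD, and below it in the others. The stiff day 4 replicates are more than 0.5 apart on the log2 scale in EBP, FASN, ACACA, LPIN1, SREBF2, NSDHL and DHCR7.

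Both SREBP genes fell while the 2 other members of the regulator group gave no call. SREBF2 was at 213 and 194 CPM on soft and 191 and 191 CPM on stiff matrix at day 2, and at 108 and 128 CPM on soft and 133 and 85.8 CPM on stiff at day 4. All day 4 libraries were below all day 2 libraries, and it fell by 0.79 ± 0.15 on the log2 scale (adjusted p = 0.0037 in edgeR), with -0.79 ± 0.21 on soft and -0.80 ± 0.21 on stiff. SREBF1 was at 38.0 and 34.0 CPM on soft and 25.4 and 29.7 CPM on stiff matrix at day 2, and at 20.4 and 20.7 CPM on soft and 17.7 and 17.1 CPM on stiff at day 4. It had no overlap between the days and fell by 0.73 ± 0.10 (adjusted p = 0.0011 in edgeR), with -0.81 ± 0.14 on soft and -0.66 ± 0.14 on stiff. INSIG1, which retains SCAP in the endoplasmic reticulum, was at 70.7 and 71.7 CPM on soft and 55.5 and 60.7 CPM on stiff matrix at day 2, and at 75.4 and 72.9 CPM on soft and 53.8 and 60.4 CPM on stiff at day 4. Its mean day change was 0.02 ± 0.09, and its stiff libraries were below its soft ones at each day. STARD4, a sterol carrier, had a mean day change of -0.06 ± 0.22, and its stiff day 4 libraries were at 45.3 and 23.0 CPM, a difference of -0.98 on the log2 scale. The summed level of the group was 311 to 353 CPM at day 2 and 186 to 262 CPM at day 4.

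FASN, the fatty acid synthase that makes palmitate, had the largest change of the 30 members. It was at 405 and 335 CPM on soft and 400.2 and 412 CPM on stiff matrix at day 2, and at 122 and 164 CPM on soft and 188 and 108 CPM on stiff at day 4. The highest day 4 library was far below the lowest day 2 library, and FASN fell 2.66-fold, by 1.41 ± 0.19 on the log2 scale (adjusted p = 0.00099 in edgeR). The log2 fold change was -1.37 ± 0.27 on soft (adjusted p = 0.010) and -1.45 ± 0.27 on stiff (adjusted p = 0.0085 in edgeR). ACACA, the acetyl-CoA carboxylase of the committed step, was at 88.6 and 85.9 CPM on soft and 89.4 and 87.2 CPM on stiff matrix at day 2, and at 49.4 and 70.7 CPM on soft and 77.7 and 47.6 CPM on stiff at day 4. It fell by 0.52 ± 0.18 (adjusted p = 0.043 in edgeR) with no overlap between the days. LPIN1, a phosphatidate phosphatase of glycerolipid synthesis, was at 51.6 and 52.9 CPM on soft and 48.6 and 50.5 CPM on stiff matrix at day 2, and at 31.3 and 43.1 CPM on soft and 38.0 and 24.1 CPM on stiff at day 4. It fell by 0.58 ± 0.17 (adjusted p = 0.022 in edgeR).

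SCD, the stearoyl-CoA desaturase, moved the other way. It was at 231 and 224 CPM on soft and 199 and 204 CPM on stiff matrix at day 2, and at 275 and 311 CPM on soft and 276 and 217 CPM on stiff at day 4. Its stiff day 4 replicate 2 was within the day 2 range, and SCD rose by 0.33 ± 0.11 (adjusted p = 0.037 in edgeR). The elongase ELOVL6 and the desaturase FADS1 had 0.27 ± 0.14 and 0.22 ± 0.12 on the log2 scale, and neither passed the test. ACLY and FADS2, a second desaturase of polyunsaturated fatty acids, had -0.27 ± 0.14 and -0.21 ± 0.10, also without passing. ACSS2, which makes acetyl-CoA from acetate, had 0.02 ± 0.09. Of the 9 genes of the group, 1 rose and 3 fell. The summed level was 1697 to 1821 CPM at day 2 and 1165 to 1630 CPM at day 4, so the days did not overlap, and FASN alone accounted for 335 to 412 CPM at day 2 and 108 to 188 CPM at day 4.

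Differences between the matrices were smaller than those between days. Their median size over the members was 0.16 at day 2 and 0.12 at day 4 on the log2 scale. For the day change it was 0.34 on soft, 0.32 on stiff and 0.30 in the mean of both. Over all genes these medians were, in the same order, 0.12, 0.18, 0.43, 0.44 and 0.42. On day 2, 0 members passed the edgeR test between stiff and soft (0% of all genes), and 2 of 30 had an unadjusted p under 0.05 (2.82% of all genes). DESeq2 also called 0 members, in a fit that called 0.213% of all genes. The members leaned to lower values on stiff matrix, with a median log2 fold change of -0.13 against 0.01 over all genes. The sign was negative in 24 of 30 members and in 7044 of all 14570 genes, given as a description since members share each library. Both stiff libraries lay below both soft libraries in 17 of 30 members (22.4% of all genes). All 7 mevalonate enzymes were negative, from -0.38 in ACAT2 to -0.006 ± 0.28 in PMVK. SREBF1 had the largest difference, -0.39 ± 0.14 (unadjusted p = 0.026, adjusted p = 0.9999 in edgeR), followed by ACAT2 at -0.38 ± 0.14 (unadjusted p = 0.024, adjusted p = 0.9999 in edgeR). When only the day 2 libraries were fitted, 4 members were called lower on stiff (ACAT2, FADS2, INSIG1 and SREBF1), in a fit that called 2.47% of 14290 genes lower.

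At day 4, 0 members passed the edgeR test between stiff and soft (0.247% of all genes), and 4 of 30 had an unadjusted p under 0.05 (6.93% of all genes). DESeq2 called 0 members at day 4, in a fit that called 1.24% of all genes. The median log2 fold change was -0.03 against 0.02 over all genes. Both stiff libraries lay below both soft libraries in 6 of 30 (14% of all genes). HMGCS1 had -0.47 ± 0.13 (unadjusted p = 0.0078, adjusted p = 0.38 in edgeR), and INSIG1 had -0.38 ± 0.13 (unadjusted p = 0.020, adjusted p = 0.53 in edgeR). FADS2, at 297 and 272 CPM on soft and 219 and 248 CPM on stiff matrix at day 2, and at 243 and 266 CPM on soft and 208 and 183 CPM on stiff at day 4, had -0.38 ± 0.14 (unadjusted p = 0.027, adjusted p = 0.59 in edgeR). SQLE, at 80.8 and 87.9 CPM on soft and 80.9 and 78.9 CPM on stiff matrix at day 2, and at 85.2 and 86.7 CPM on soft and 72.6 and 65.5 CPM on stiff at day 4, had -0.32 ± 0.13 (unadjusted p = 0.037, adjusted p = 0.67 in edgeR). Without stiff day 4 replicate 1, 4 members were called higher and 8 lower on stiff, among them EBP, HMGCS1, SQLE and SREBF2, and 16.5% of all genes were called higher and 14.6% lower, so the counts at day 4 depended on that library.

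HMGCS1, INSIG1, SREBF1 and FADS2 had both stiff libraries below both soft libraries at each day, which is 4 of 30 or 13.3% of members, against 6.14% of all genes tested. The difference between the matrices in the day change gave 0 member calls in edgeR (0% of all genes) and 0 in DESeq2 (0.0206% of all genes). In edgeR 1 member, ACAT2, had an unadjusted p under 0.05 (1.95% of all genes). Without stiff day 4 replicate 1 it gave 5 members, ACAT2, EBP, FDPS, MVD and TM7SF2, all higher, while 11.1% of all genes were called higher.

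**Figure D4:**
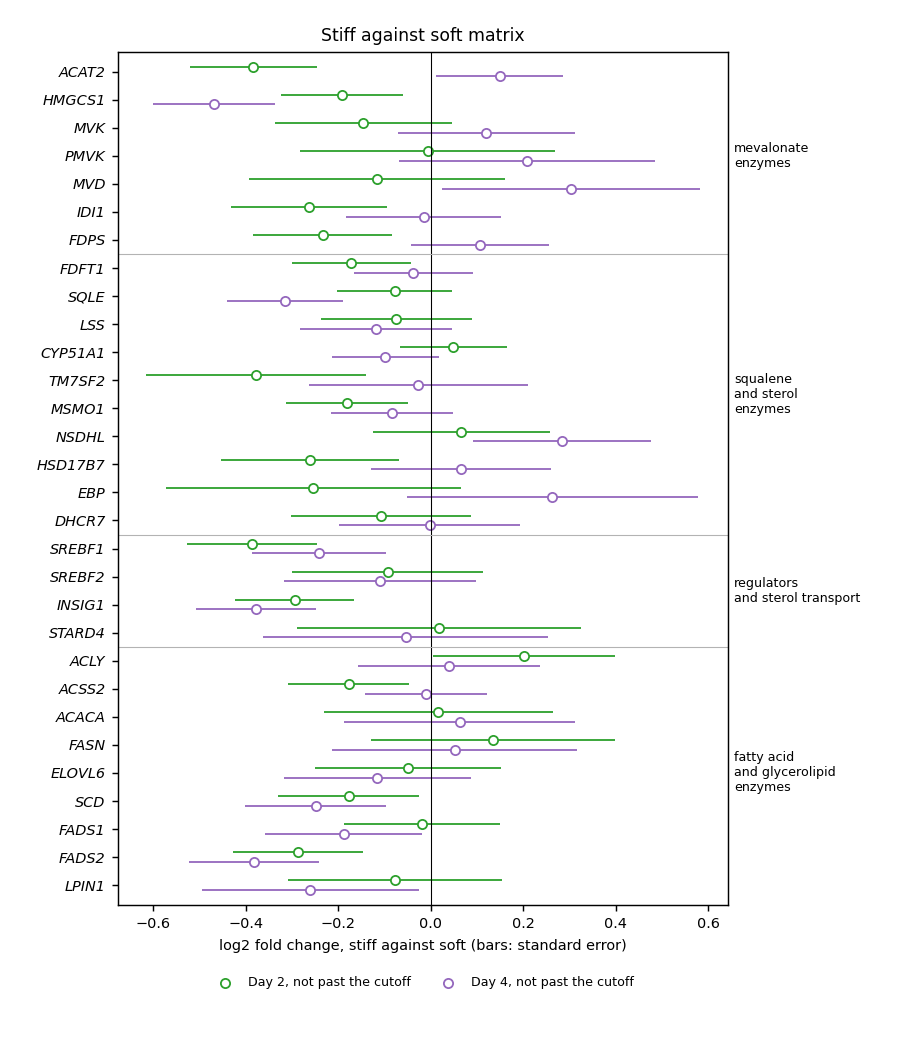
Log2 fold change of stiff against soft matrix in each member at day 2 (green) and day 4 (purple), with standard errors as bars. No point passed an adjusted p of 0.05, and 24 of 30 day 2 points lie left of zero, against 7044 of all 14570 genes tested.

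The spread between the stiff day 4 replicates followed gene length. Of 30 members, 14 differed by more than 0.5 on the log2 scale between the 2 stiff day 4 libraries, against 0 in soft day 2, 0 in stiff day 2 and 1 in soft day 4. The median absolute difference at stiff day 4 was 0.45 over the members and 0.47 over all genes, so the spread was not particular to the members. The differences, replicate 2 over replicate 1, ran from -0.98 in STARD4 to 1.08 in EBP. Across the 30 members they correlated with the gene length implied by the FPKM with Spearman's rho = -0.81 (-0.56 over all genes), and in soft day 4 with rho = 0.76 (0.47 over all genes). Short members tended to be higher in stiff day 4 replicate 2 and long ones lower. At day 2 the values over the members were -0.09 on soft (0.19 over all genes) and 0.13 on stiff (-0.04 over all genes). The lengths of the 13 called members ran from 1157 bases in EBP to 11380 bases in ACACA. Across the members the mean day change correlated with length with rho = -0.49 (-0.06 over all genes), the change on soft with -0.30 (0.04) and the change on stiff with -0.63 (-0.15). The difference between matrices correlated with length with rho = 0.31 (0.24 over all genes) at day 2 and -0.61 (-0.28) at day 4, and the difference of the day changes with -0.70 (-0.42). With a length offset fitted in each library, an alternative chosen after seeing the data, 8 members were called higher and 11 lower, in a fit that called 33.0% of all genes higher and 24.9% lower, and each of the 13 kept its direction and its call, with FASN at -1.29, MSMO1 at 0.97 and EBP at 0.99.

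**Figure D5:**
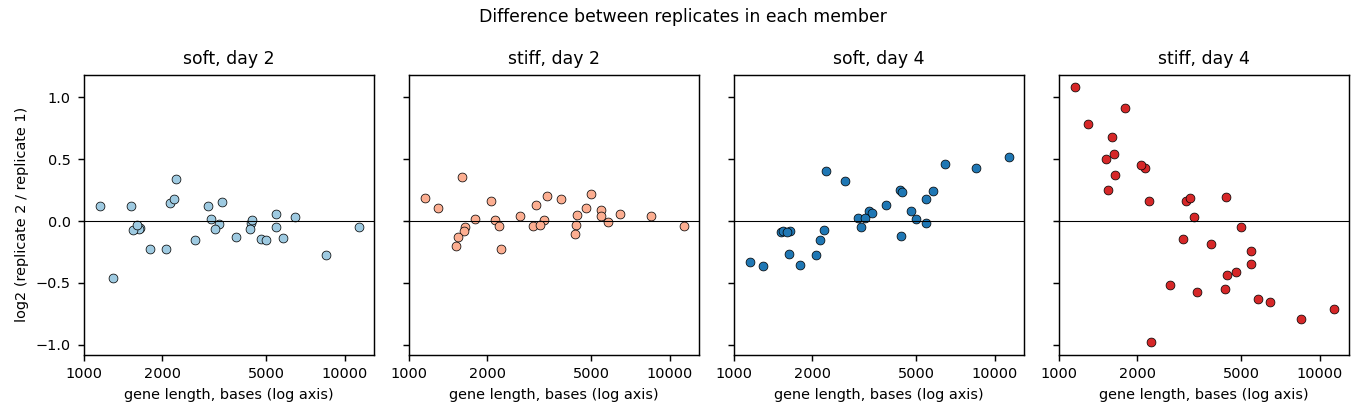
Log2 ratio of replicate 2 to replicate 1 in each member against its gene length (log axis) in the 4 conditions. Points slope downward in stiff day 4 (rho = -0.81), upward in soft day 4 (rho = 0.76) and show little slope at day 2.

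Other genes of the same pathways, from lists that hold no members, also moved in both directions. Of 15 other sterol pathway genes, 5 rose and 3 fell in the mean of both matrices, with a median log2 fold change of 0.18. TMEM97, a sterol-responsive membrane protein, rose by 0.89 ± 0.09 (adjusted p = 0.00035 in edgeR), and its day 2 libraries at 56.5 to 66.4 CPM were all below its day 4 libraries at 104.5 to 124 CPM. INSIG2, the paralogue of INSIG1, rose by 0.75 ± 0.09 (adjusted p = 0.00079 in edgeR), while INSIG1 did not pass. NPC1, which exports cholesterol from lysosomes, fell by 0.72 ± 0.20 (adjusted p = 0.021 in edgeR). Of 19 other fatty acid synthesis genes, 7 rose and 3 fell, with a median of 0.12. SCD5, a second stearoyl-CoA desaturase, rose by 0.98 ± 0.09 (adjusted p = 0.00023 in edgeR), from 26.3 to 27.9 CPM at day 2 to 51.1 to 54.3 CPM at day 4. ME1, the malic enzyme that supplies NADPH, rose by 1.02 ± 0.12 (adjusted p = 0.00050 in edgeR).

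Of 10 targets and receptors of the liver X receptor (LXR), a sterol sensor, 8 were tested, 5 rose and 1 fell, with a median of 0.41. ABCG1, a sterol exporter, rose by 2.40 ± 0.45 (adjusted p = 0.0039 in edgeR) at under 1 CPM in every library, and NR1H2, which encodes LXR beta, fell by 0.41 ± 0.09 (adjusted p = 0.0072 in edgeR). Of 17 fatty acid oxidation genes, 6 rose and 3 fell, with a median of 0.28. ACADVL, the very long chain acyl-CoA dehydrogenase, fell by 1.19 ± 0.14 (adjusted p = 0.00052 in edgeR), and DECR1, which handles unsaturated chains, rose by 1.42 ± 0.19 (adjusted p = 0.00089 in edgeR). Of 16 lipid droplet and storage genes, 14 were tested, 2 rose and 4 fell, with a median of -0.21. DGAT1, which completes triglycerides, fell by 1.39 ± 0.13 (adjusted p = 0.00030 in edgeR), and SOAT1, which esterifies cholesterol, rose by 0.57 ± 0.10 (adjusted p = 0.0028 in edgeR). The shares in these lists can be read against 24.3% higher and 21.9% lower over all genes.

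Some members share positions with other genes or have pseudogene copies. Exons of 16 members overlapped a gene on the opposite strand, among them ACAT2 with TCP1, SREBF1 with RAI1, CYP51A1 with AKAP9 and FADS1 with FADS2. The strand setting and gene annotation of the counting are not given in the sources used here, so the overlaps in the counting may differ. IDI1, FDPS, CYP51A1, HSD17B7 and SCD have named pseudogene copies. Reads shared with these genes or copies were not measured, so the counts of the members concerned are uncertain to that extent.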

How the data were processed

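RNA-seq of LX-2 cells gave 8 libraries, grouped by the labels into 4 conditions of 2, with the stiffness taken from the study. The authors trimmed the reads with TrimGalore, aligned them to hg19 by STAR 2.7.1a and counted genes with htseq-count, and the deposited counts are raw. Gene annotation and strand setting are not given in the sources used here. FPKM were deposited too. Their ratio to the counts differed between libraries by 1 factor per library in 100% of 12138 genes (within a relative tolerance of 1e-06), that of median-of-ratios size factors, so these FPKM are not scaled by total count.

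Tests started from the counts, in R 4.3.3 with edgeR 4.0.16. Of 25369 genes, 14570 passed filterByExpr. After TMM scaling, 1 quasi-likelihood fit over the 8 libraries with a term per condition gave all contrasts, so that groups of 2 shared the estimate of spread. P-values were adjusted by Benjamini-Hochberg over all genes tested, with a cutoff of 0.05. CPM were TMM-normalized, and a standard error is |log2 fold change| over the root of F. The study used DESeq2. It was run here (version 1.42.0) as an alternative, as were limma 3.58.1 on log2 FPKM, other scalings and filters, a separate fit, a replicate block and leaving out each library. A crossed pairing and gene length offsets were added after seeing the data. Scripts were tested on simulated data.

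The members and the other gene lists were chosen with earlier results of these data known. Values in every library were given for members past an adjusted p of 0.05 in any contrast, among the 10 smallest p for the mean day change, or under an unadjusted p of 0.05 between matrices. From other lists, the 2 genes with the smallest p were named, plus NPC1 as an example of a fall, chosen after its values were seen.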

Additional observations from a re-analysis of the deposited data

How the results depend on the processing

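On soft matrix, the counts of members called from day 2 to day 4 were 2 higher and 4 lower. The higher count was 1 with no scaling factors (9.87% of all genes) and 1 with no filter beyond a total of 1 count (8.65%). It was 5 in a separate fit of the compared libraries (24.7%) and 5 with length offsets (23.7%), against 14.1% in the main fit. The lower count was 12 in the separate fit (25.9% of all genes) and 7 with length offsets (18.5%). By limma on log2(FPKM + 1) with no filter it was 2 (8.80%), against 13.3% in the main fit. On stiff matrix, the counts of 4 higher and 3 lower were 0 and 0 in the separate fit (0% of all genes). They were 7 and 6 with length offsets, which called 25.1% of all genes higher and 17.3% lower. In the main fit these shares were 14.0% and 13.7%. For the mean of both matrices, the 5 higher members (24.3% of all genes) were 3 with no scaling factors (18.1%) and 8 with length offsets (33.0%). Of 0 members lower on stiff at day 2 (0% of all genes), the separate fit gave 4 (2.47% of all genes). Leaving out 1 library gave 0 to 6 higher and 0 to 13 lower on soft, 0 to 7 higher and 0 to 11 lower on stiff, 3 to 8 higher and 3 to 13 lower in the mean, 0 to 4 higher and 0 to 8 lower between matrices at day 4, and 0 to 5 higher for the difference of the day changes. The cause was not tested. No scaling factors moved the median of all genes by -0.10 for the mean day change, -0.13 on stiff and -0.11 between matrices at day 4, and the members' median relative to all genes stayed between -0.13 and -0.10 in the day contrasts.

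Replicate numbers did not pair the libraries, since same-numbered libraries correlated at -0.49 to 0.08. With the replicate block, the soft counts were 1 higher and 2 lower and the stiff counts were 2 higher and 3 lower, while calls over all genes went from 27.4% to 18.0% on soft and from 27.6% to 17.5% on stiff. A crossed block with the stiff day 4 numbers swapped was added because of the negative correlation. It gave 2 and 4 on soft and 4 and 4 on stiff, while it called 31.2% of all genes on soft and 31.2% on stiff. The median over members of the difference between day changes, 0.07, ran from -0.053 (without stiff day 4 replicate 1) to 0.10 when 1 library was left out, and was -0.039 without soft day 4 replicate 1. The soft change of ACAT2, -0.004, reversed to 0.10 with length offsets and ran from -0.0726 to 0.034 when 1 library was left out. Of the named members' other values under alternatives that kept all libraries, 519 kept direction and side of the threshold, 25 passed it only there and 28 no longer passed. With 1 library left out, these numbers were 280, 25 and 85.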
